A study of Sus scrofa with 63 samples.

Results

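Livers of mature pigs at 188 dies post natum (dpn) were compared with fetal livers at 94 dies post conceptionem (dpc), to give the net change of hepatic transcript levels over the whole of development rather than over the step between adjacent stages. Arrays were taken by the stage in their labels, which gave 16 arrays of 188 dpn and 16 of 94 dpc, 32 of the 63 arrays of the series, with 1 array per animal. All 23935 probe-sets of the porcine array that are not controls, of 24123 in total, were compared. The other 31 arrays, of 1 dpn and 28 dpn, are used only to show where between the 2 ends a change lay.

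All animals were German Landrace offspring of gilts fed a gestational high protein diet (HP), so the diet of the dams is shared by both stages. Offspring of the other diet group were not analysed here. The fetuses were sampled while their dams were on this diet. The mature pigs had been cross-fostered to sows on adequate protein diets and then reared on standard diets. The mature pigs were fasted overnight, stunned by electronarcosis and exsanguinated, and liver was taken from the lobus sinister. The fetuses came from other sows, in a separate experiment with Caesarean section, and were killed by injection of T61. They had been chosen as the lightest and heaviest of their litters, whereas the pairs of 188 dpn were not chosen for discordant weight, and males of the postnatal stages were castrated as piglets. Stage, experiment, dam, exposure to the high protein diet at sampling, fasting and manner of death therefore cannot be told apart. The animals were sib pairs balanced for sex, but neither pair, mother nor sex is in the labels, so the p-values treat all 16 animals of a stage as independent and measure only the spread between these arrays.

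The fetal liver is a blood-forming organ, in which red cell, myeloid and platelet precursors lie between growing hepatocytes that secrete α-fetoprotein and respond little to growth hormone. After birth blood formation moves to the bone marrow, and hepatocytes leave the cell cycle and take up detoxification, ureagenesis, gluconeogenesis and the oxidation of fatty acids. In bulk tissue, fewer cells of a type and less RNA per cell cannot be told apart, and this holds for every value given here.

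All 12 hepatocyte markers were on the array and were above background on all 32 arrays, where background is set per array at the 95th percentile over 23 controls that match no transcript. Values are on a log2 scale, after the authors had brought the trimmed mean of every array to 500 on the linear scale. The scaling left array medians of 6.43 to 6.83 at 188 dpn, against 7.27 to 7.52 at 94 dpc. Between 57.2% and 75.2% of probe-sets were above background at 188 dpn, and between 59.3% and 81.2% at 94 dpc. The arrays also differed in labelling. The 3′ minus 5′ difference of RNAs added before labelling was 0.66 to 1.72 at 188 dpn and 0.23 to 0.46 at 94 dpc, and that of actin averaged 4.10 and 2.44. The 28S rRNA probe-set averaged 14.7 at 188 dpn and 12.3 at 94 dpc. Array medians, added RNAs and 28S rRNA did not overlap between the stages, and their part in the changes was not tested beyond a fit with the added RNAs as a covariate. 94 dpc array 6 stood apart, with the lowest mean correlation with its own stage (0.852) and an actin difference of 4.30.

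A change is the mean of 188 dpn minus the mean of 94 dpc on the log2 scale, so that a change of 1 is a doubling. A probe-set was called where limma's moderated test, adjusted by Benjamini-Hochberg over all 23935 probe-sets, gave a p under 0.05. On the deposited scale 3807 probe-sets (15.9%) were higher and 10891 (45.5%) were lower at 188 dpn. The median change of all probe-sets was −0.50, and 6803 of the lower and 1724 of the higher ones changed at least 2-fold. This balance rests on the scaling, as the plot of net changes under 3 scalings shows. After quantile normalization 6418 probe-sets were higher and 6573 lower, and after centring each array on its 9790 probe-sets above background everywhere, 5599 were higher and 7709 lower. The higher share of all calls was 25.9% as deposited, 49.4% after quantile normalization and 42.1% after centring.

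**Figure D1:**
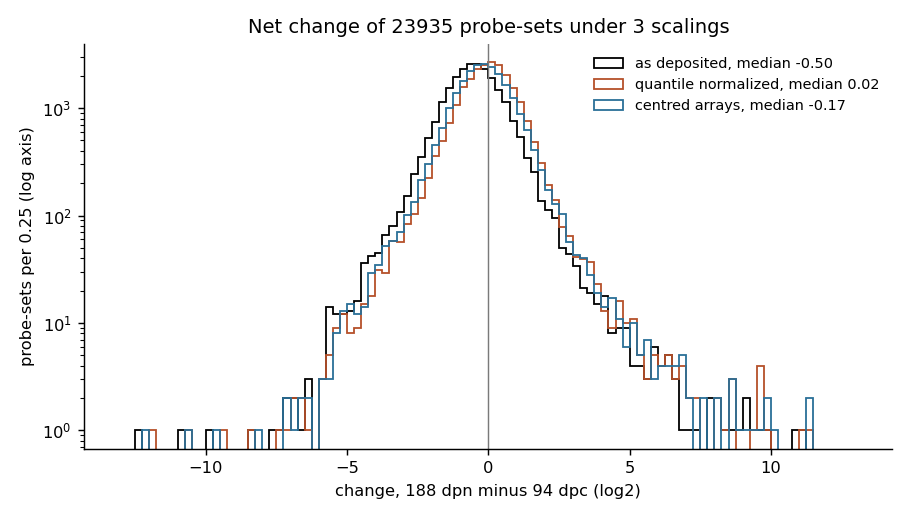
Histogram of the change of 23935 probe-sets (188 dpn minus 94 dpc, log2, x axis; number of probe-sets per bin on a log y axis) under the deposited scaling, quantile normalization and centring. The medians lie at −0.50, 0.02 and −0.17, while the tails beyond 5 on either side remain under all 3 scalings.

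Signals below background followed the same shift. Of 949 probe-sets that were under background on all 32 arrays, 202 were called lower and 6 higher on the deposited scale, with a median change of −0.48, and the background itself was 0.46 lower at 188 dpn. For this reason a gene is said below to have risen or fallen only where it was called in the same direction under all 3 scalings, a criterion chosen after seeing the data. Of the 6768 genes with a symbol, each represented by its brightest probe-set, 1833 (27.1%) were higher and 3001 (44.3%) lower on the deposited scale. Under all 3 scalings 1710 genes (25.3%) rose and 1801 (26.6%) fell, and list counts are to be read against these shares. With the added RNAs as a covariate 1365 genes were called higher and 2282 lower, so calls were lost over all genes. List counts under that fit are to be read against this loss. The median change over all genes was −0.27 as deposited, 0.08 after quantile normalization and 0.07 after centring. Of 2261 genes with several probe-sets, 106 had probe-sets that moved in opposite directions under all 3 scalings. The lowest array of 188 dpn lay above the highest of 94 dpc for 1044 probe-sets (4.36%), and the reverse held for 2265 (9.46%).

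The 15 largest increases without overlap included enzymes of drug metabolism and of amino acid breakdown, an acute phase protein, a chemokine and a macrophage receptor. CYP3A29, a cytochrome P450 of the family that oxidises many drugs and steroids, had log2 signals of 14.10, 14.67 and 15.20 (lowest, median and highest) at 188 dpn, against 1.34, 3.27 and 6.31 at 94 dpc. It was above background on all arrays of 188 dpn but on only 3 of 94 dpc, and rose by 11.01 ± 0.42 (SE; adjusted p = 1.16e-20), or by 8.46 with signals under background raised to it. CRP, the C-reactive protein of the acute phase, had 13.30, 14.78 and 15.35 (lowest, median and highest) at 188 dpn, against 3.06, 5.54 and 6.72 at 94 dpc. It rose by 9.22 ± 0.301 (adjusted p = 1.94e-22), and by 8.34 above background. No fetal liver came within several log2 units of any mature liver for either gene.

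Others of these 15 were dim or dark in the fetus. CCL19, a chemokine that draws T cells and dendritic cells to lymphoid tissue, lay between 10.83 and 12.59 at 188 dpn (median 11.57) and between 2.42 and 5.38 at 94 dpc (median 4.00). None of the fetal arrays was above background, so its increase was at least 44.6-fold (adjusted p = 2.98e-22). For DDO, the D-aspartate oxidase, the increase was at least 12.8-fold, with 0 fetal arrays above background. FOLR2, the folate receptor of tissue macrophages, was measured on all 32 arrays, with 14.41, 14.70 and 14.97 (lowest, median and highest) at 188 dpn, against 7.35, 8.63 and 9.16 at 94 dpc. Its rise of 6.11 ± 0.113 (adjusted p = 2.17e-29) had the smallest standard error of the 15.

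The 15 largest decreases without overlap included AFP, S100G and PEG10. AFP, the α-fetoprotein of fetal plasma, had 1.55, 3.19 and 6.31 (lowest, median and highest) at 188 dpn, against 15.68, 16.01 and 16.21 at 94 dpc. The highest fetal value lay within the range of the highest signals per array (16.08 to 16.61), and 1 mature array was above background. AFP fell by 12.49 ± 0.341 (adjusted p = 1.51e-24), or by 10.29 with signals under background raised to it. S100G, a small calcium-binding protein, had 1.63, 3.06 and 7.63 (lowest, median and highest) at 188 dpn, against 13.76, 14.98 and 15.29 at 94 dpc and fell by 10.94 ± 0.5 (adjusted p = 1.34e-18), or by 8.88 with background as the floor, since 4 mature arrays were above it. PEG10, an imprinted gene derived from a retrotransposon and expressed from the paternal allele, lay between 2.38 and 6.76 at 188 dpn (median 5.54) and between 15.07 and 15.51 at 94 dpc (median 15.34) and fell by 9.93 ± 0.275 (adjusted p = 2.17e-24), or by 9.45 with the same floor. The stages did not overlap for any of these.

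Further decreases of this size included a synthase, a transporter and a troponin. ISYNA1, which makes inositol phosphate from glucose phosphate, had 7.44, 8.29 and 8.60 (lowest, median and highest) at 188 dpn, against 14.66, 15.22 and 15.47 at 94 dpc, all above background, and fell by 6.96 ± 0.114 (adjusted p = 1.52e-30). ASNS, the asparagine synthetase, had 7.31, 7.71 and 8.17 (lowest, median and highest) at 188 dpn, against 12.75, 13.20 and 13.72 at 94 dpc and fell by 5.51 ± 0.103 (adjusted p = 2.18e-29). Both were bright at both ends, so that neither decrease depends on background. ACSL4, an acyl-CoA synthetase with a preference for arachidonate, fell by 5.55 ± 0.183, SLC25A33, a mitochondrial carrier of pyrimidine nucleotides, by 5.59 ± 0.263, SLC15A1, the proton-coupled peptide transporter, by 5.51 ± 0.346 and EMB, the adhesion protein embigin, by 5.55 ± 0.248. TNNI2, the fast skeletal muscle troponin I, spread widely within the fetuses (7.74 to 13.05) and fell by 7.15 ± 0.492, or by 5.78 with background as the floor, with 4 mature arrays above it. PSP-II, named for a seminal plasma protein, fell by 6.79 ± 0.334, and LOC100519808 by 5.99 ± 0.143. With the same floor the decreases were 3.73 for SLC15A1, 5.19 for EMB, 6.27 for PSP-II and 5.79 for LOC100519808.

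**Figure D2:**
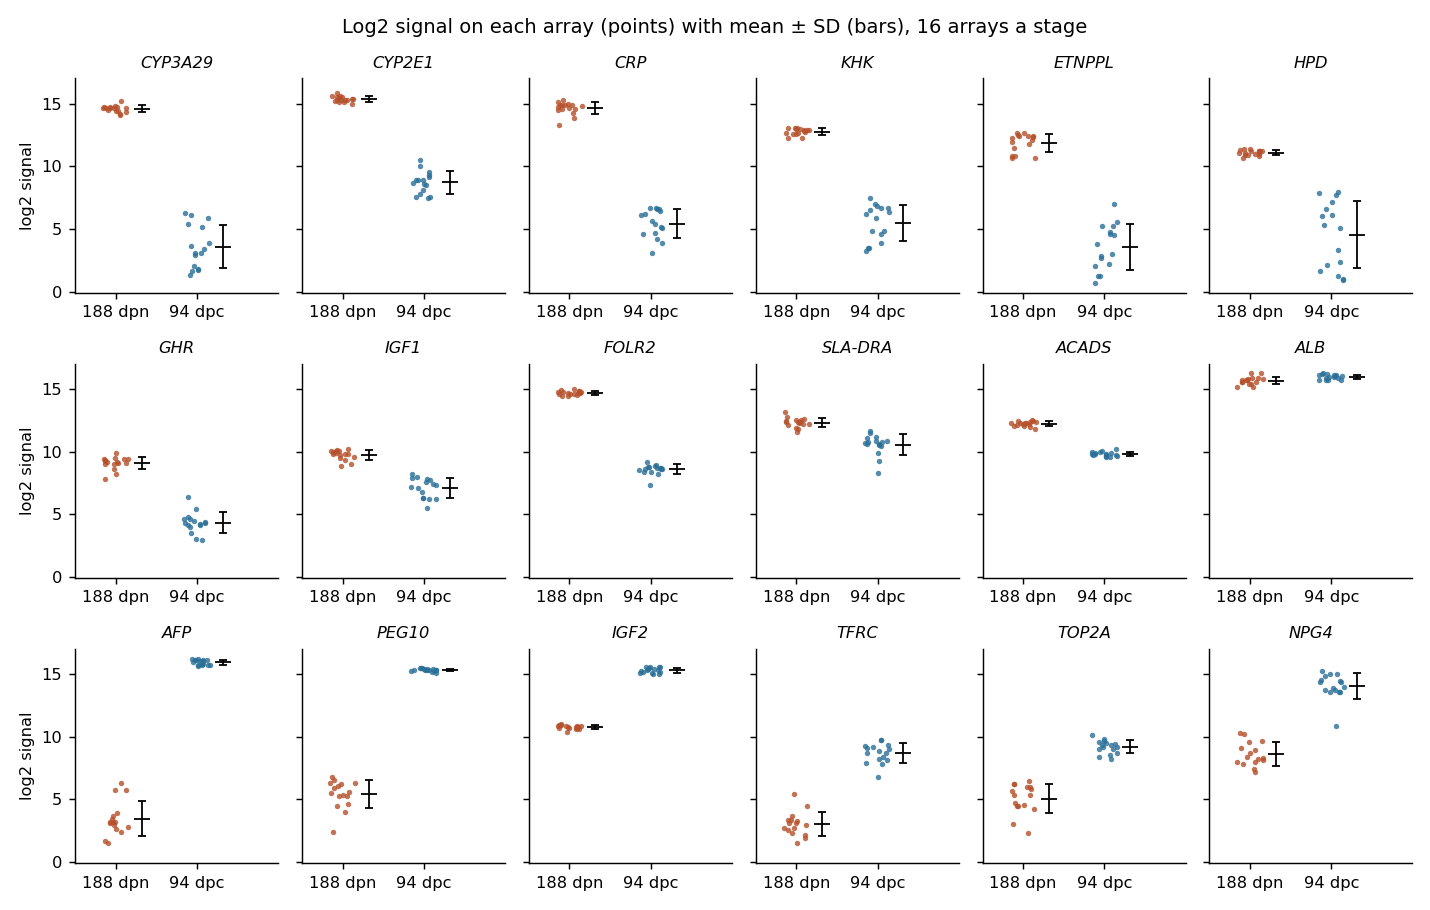
Log2 signal of 18 genes on each of 16 arrays of 188 dpn (left in each panel) and 16 of 94 dpc (right), with the mean and SD beside the points. Apart from ALB, the genes show no overlap or little overlap between the stages, and the scatter is widest where signals lie under about the background of the arrays.

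Most genes of drug metabolism were higher at 188 dpn. Of 42 genes on the array 33 rose and 2 fell, the median change was 1.71 (1.44 after quantile normalization), and 24 were higher without overlap between the stages. CYP3A46, CYP2A19 and CYP3A39 rose by 9.51 ± 0.457, 8.82 ± 0.252 and 8.20 ± 0.173, where CYP3A46 was above background on 4 fetal arrays and its increase was 8.16 with background as the floor. CYP2E1, which oxidises ethanol and small solvents, had 14.99, 15.35 and 15.90 (lowest, median and highest) at 188 dpn, against 7.48, 8.78 and 10.49 at 94 dpc and rose by 6.66 ± 0.226 (adjusted p = 5.18e-22), with all arrays above background. CYP2C49 lay between 13.28 and 15.23 at 188 dpn (median 14.63) and between 6.89 and 10.67 at 94 dpc (median 7.89) and rose by 6.28 ± 0.294. The P450 genes of a family are similar in sequence, and probe-sets may share signal between them.

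Of the same list, SULT2A1, a sulfotransferase of steroids, rose by 5.22 ± 0.177, and PON3, a lactone-hydrolysing paraoxonase, by 6.44 ± 0.426, though PON3 was above background on 1 fetal array and its increase was 4.39 with background as the floor. POR, the reductase that passes electrons to all microsomal P450 enzymes, rose by only 1.24 ± 0.125 (adjusted p = 2.86e-10), with between 10.64 and 11.91 at 188 dpn (median 10.99) and between 9.59 and 10.67 at 94 dpc (median 9.91). GSTA4, a glutathione transferase of lipid aldehydes, fell by 1.72 ± 0.257, but a dimmer probe-set of the gene rose. ADH5, the formaldehyde-oxidising alcohol dehydrogenase, fell by 0.63 ± 0.0767. GSTM3, which had the next lowest change, gave −0.25 and passed no test under all 3 scalings.

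Enzymes of amino acid breakdown and the urea cycle increased, with 24 of 31 genes higher and 0 lower, and a median change of 1.63. ETNPPL, which cleaves phosphoethanolamine, had 10.69, 12.17 and 12.69 (lowest, median and highest) at 188 dpn, against 0.70, 3.40 and 7.02 at 94 dpc, was above background on 2 fetal arrays and rose by 8.33 ± 0.477, or by 5.70 above background. GNMT, which uses up surplus methyl groups, had 13.19, 13.98 and 14.37 (lowest, median and highest) at 188 dpn, against 4.96, 7.30 and 8.06 at 94 dpc and rose by 6.62 ± 0.217 (adjusted p = 2.22e-22). HPD, the hydroxyphenylpyruvate dioxygenase of tyrosine breakdown, lay between 10.67 and 11.40 at 188 dpn (median 11.14) and between 0.96 and 7.99 at 94 dpc (median 5.23) and rose by 6.56 ± 0.648 (adjusted p = 1.59e-10). With background as the floor its increase was 4.54. The fetal range of HPD spans 7 log2 units, with 6 arrays above background, whereas the mature range is under 1.

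SDS, the serine dehydratase that feeds gluconeogenesis, rose by 5.62 ± 0.517, or by 4.10 with background as the floor, and here the mature livers spread widely, with 7.35, 10.21 and 13.49 (lowest, median and highest) at 188 dpn, against 2.82, 4.75 and 6.67 at 94 dpc. Within the urea cycle, ASS1 and ASL, which join and split argininosuccinate, rose by 2.26 ± 0.124 and 2.25 ± 0.121 without overlap. ARG1, the arginase, rose by 1.03 ± 0.132 and CPS1, the carbamoyl phosphate synthetase that admits ammonia to the cycle, by 0.56 ± 0.0823. CPS1 was already bright in the fetus, between 14.22 and 14.99 at 188 dpn (median 14.47) and between 13.73 and 14.23 at 94 dpc (median 14.00). OTC, the ornithine transcarbamylase, changed by 0.33 ± 0.134 (adjusted p = 0.03), a call that was lost after quantile normalization (0.14). KYNU of the kynurenine pathway and TAT, the tyrosine aminotransferase, gave the lowest changes of the list, −0.45 and −0.32, neither past all 3 tests.

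The breakdown of branched-chain amino acids, which passes through a shared dehydrogenase complex in mitochondria, followed with 8 of 15 genes higher, 1 lower and a median of 0.85. IVD, the isovaleryl-CoA dehydrogenase of leucine breakdown, had 11.48, 12.17 and 13.28 (lowest, median and highest) at 188 dpn, against 9.77, 10.39 and 11.00 at 94 dpc and rose by 1.90 ± 0.149 (adjusted p = 9.52e-13). PCCA, a subunit of propionyl-CoA carboxylase, BCKDHB, a subunit of the branched-chain dehydrogenase, and ACADSB rose by 1.69 ± 0.13, 1.59 ± 0.084 and 1.50 ± 0.0996. DLD, the dihydrolipoamide dehydrogenase that this complex shares with others, fell by 0.71 ± 0.138. BCAT1, the cytosolic aminotransferase, gave −0.52, which was not called alike under all 3 scalings.

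Fatty acid oxidation and ketogenesis counted 23 of 37 genes higher and 2 lower, with a median of 0.97. ACADS, the dehydrogenase of short acyl chains, had 11.81, 12.26 and 12.49 (lowest, median and highest) at 188 dpn, against 9.56, 9.81 and 10.21 at 94 dpc and rose by 2.40 ± 0.0759 (adjusted p = 7.90e-23). ECI1, an enoyl-CoA isomerase of the mitochondrial matrix, rose by 2.54 ± 0.0872 and CPT1A, which admits long chains to the mitochondrion, by 2.18 ± 0.237, both without overlap. ANGPTL4, an inhibitor of lipoprotein lipase, and PDK4, which switches off pyruvate dehydrogenase, were higher by 3.77 ± 0.309 and 3.08 ± 0.249. With background as the floor ANGPTL4 was higher by 3.27. The mature pigs had been fasted, which cannot be told apart from stage here, and the part of fasting in these changes was not tested. ACSL3, an acyl-CoA synthetase of lipid droplets, and CPT2, the inner membrane partner of CPT1A, fell by 1.77 ± 0.15 and 1.69 ± 0.275. CPT2 was dim, above background on 7 arrays of 188 dpn and 14 of 94 dpc, and fell by 1.05 with background as the floor. PPARGC1A, a coactivator of mitochondrial genes, gave −0.69 ± 0.256 (adjusted p = 0.0198) but −0.35 after centring, and the bifunctional oxidation enzyme HADHA gave 0.03.

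Glucose production and glycogen storage, with 11 of 19 genes higher and 3 lower (median 0.77), included an opposite pair of fructose genes. KHK, which phosphorylates fructose, had 12.25, 12.87 and 13.09 (lowest, median and highest) at 188 dpn, against 3.22, 6.04 and 7.49 at 94 dpc, was above background on 6 fetal arrays and rose by 7.29 ± 0.356 (adjusted p = 7.35e-18), or by 6.42 above background. SLC2A5, the fructose transporter, had 2.43, 5.02 and 6.09 (lowest, median and highest) at 188 dpn, against 6.88, 9.03 and 11.53 at 94 dpc and fell by 4.38 ± 0.41 (adjusted p = 4.92e-11), or by 3.58 with background as the floor, with 4 mature arrays above it. PCK1, the cytosolic enzyme that commits carbon to gluconeogenesis, lay between 14.33 and 15.34 at 188 dpn (median 14.83) and between 10.81 and 14.30 at 94 dpc (median 12.85) and rose by 2.30 ± 0.291. SLC37A4, the glucose phosphate carrier of the endoplasmic reticulum, and PCK2, the mitochondrial carboxykinase, rose by 1.88 ± 0.102 and 1.51 ± 0.149. MDH1, the cytosolic malate dehydrogenase, fell by 1.16 ± 0.0828.

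Isoforms of glycolysis and glucose uptake that mature hepatocytes use little showed no common direction, with 2 of 12 genes higher and 3 lower. SLC2A1 and SLC2A3, glucose transporters of red cells, placenta and brain, fell by 1.30 ± 0.132 and 0.95 ± 0.154, and HK1, a hexokinase of high affinity, by 0.89 ± 0.106. PFKP, the platelet form of phosphofructokinase, rose by 1.25 ± 0.373. On the deposited scale 6 of the 12 genes were called lower, and with the added RNAs as a covariate 0 were called higher. Higher calls also dropped over all genes with that covariate, from 1833 to 1365.

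Of 14 genes of cholesterol synthesis 2 rose and 5 fell, against 25.3% and 26.6% of all genes. The median was −0.26 (−0.66 after quantile normalization), against −0.27 (0.08) over all genes. Quantile normalization gave 10 lower and 2 higher, and centring 5 lower and 4 higher, so a decrease of the list rests on the scaling. HMGCS1, a synthase early in the pathway, had 8.18, 9.75 and 12.35 (lowest, median and highest) at 188 dpn, against 11.60, 12.51 and 13.41 at 94 dpc, all above background, and fell by 2.51 ± 0.365 (adjusted p = 3.82e-07). The stages overlapped only between the brightest mature and the dimmest fetal livers. HSD17B7, CYP51 and SQLE, which act after squalene has formed, fell by 1.50 ± 0.146, 0.99 ± 0.19 and 0.83 ± 0.2. DHCR7, the last reductase, rose by 0.91 ± 0.132, and SREBF2, the factor that drives these genes, by 1.03 ± 0.129, although dimmer probe-sets of SREBF2 fell.

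Of 13 genes of bile acid synthesis and transport 5 rose and 1 fell, with a median of 0.54. CYP7A1, the rate-limiting hydroxylase of bile acid synthesis, had 4.58, 8.55 and 10.19 (lowest, median and highest) at 188 dpn, against 1.79, 3.80 and 6.85 at 94 dpc and rose by 3.40 ± 0.608 (adjusted p = 1.18e-05), with 13 mature and 5 fetal arrays above background and an increase of 1.73 with background as the floor. AMACR, the racemase of bile acid side chains, CYP27A1, the sterol side chain hydroxylase, and SLC10A1, the uptake transporter of bile salts, rose by 2.10 ± 0.168, 1.71 ± 0.09 and 1.75 ± 0.12. ABCB11, the pump that exports bile salts into bile, had 6.45, 7.98 and 8.67 (lowest, median and highest) at 188 dpn, against 9.17, 9.71 and 11.11 at 94 dpc and fell by 2.01 ± 0.178 (adjusted p = 1.35e-11), without overlap. The uptake transporter SLC10A1 and the export pump ABCB11 moved in opposite directions between these ends of development.

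Of 21 genes on the list of fatty acid and triglyceride synthesis, which also holds lipases and a droplet protein, 10 rose and 4 fell. The median was −0.27 (0.31 after quantile normalization), against −0.27 (0.08) over all genes. PNPLA2, the triglyceride lipase of adipose tissue and liver, AGPAT2, which acylates lysophosphatidic acid, and LPIN1, a phosphatidate phosphatase, rose by 2.29 ± 0.111, 2.17 ± 0.127 and 1.69 ± 0.222. PLIN2, the coat protein of lipid droplets, lay between 7.63 and 11.28 at 188 dpn (median 8.58) and between 11.20 and 12.37 at 94 dpc (median 11.89) and fell by 3.01 ± 0.272 (adjusted p = 2.23e-11). PNPLA3, a lipid droplet hydrolase, fell by 3.46 ± 0.424, or by 3.20 with background as the floor, and LIPC, the hepatic lipase, by 2.74 ± 0.146. SCD, the stearoyl-CoA desaturase, fell by 1.84 ± 0.292. FASN, the fatty acid synthase, gave −0.33 ± 0.305 (adjusted p = 0.358), with mature values from 10.56 to 14.02 that enclosed all fetal values (11.29 to 13.05).

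Plasma carriers and apolipoproteins were bright at both stages. Of 25 genes 4 rose and 5 fell, whereas 18 were called lower on the deposited scale. Of the 12 hepatocyte markers 10 were likewise called lower as deposited, but 2 rose and 0 fell under all 3 scalings, and their median was −0.34 as deposited and 0.01 after quantile normalization. ALB, the albumin, had 15.18, 15.71 and 16.25 (lowest, median and highest) at 188 dpn, against 15.68, 15.99 and 16.25 at 94 dpc, a change of −0.29 ± 0.0959 (adjusted p = 0.0085) that turned to 0.12 and 0.04 under the other scalings. Its signals stood close to the highest of the arrays. APOA4, an apolipoprotein of triglyceride-rich particles, lay between 9.23 and 14.39 at 188 dpn (median 11.41) and between 5.26 and 8.99 at 94 dpc (median 7.01) and rose by 4.69 ± 0.441 (adjusted p = 5.36e-11). HPX, the carrier of free heme, rose by 1.75 ± 0.0995. APOM, the carrier of sphingosine phosphate, and SERPINA7, which binds thyroid hormone, fell by 1.82 ± 0.0928 and 1.51 ± 0.0965. APOB, the structural protein of very low density lipoprotein, fell by 0.91 ± 0.131.

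Complement and coagulation genes rose in 22 of 31 cases and fell in 1, with a median of 0.75. MBL2, the mannose-binding lectin that starts the lectin pathway, had 5.34, 10.53 and 13.46 (lowest, median and highest) at 188 dpn, against 2.34, 5.42 and 6.76 at 94 dpc and rose by 5.83 ± 0.618 (adjusted p = 7.45e-10), or by 4.45 with background as the floor, with 3 fetal arrays above it. C4A had 14.64, 14.91 and 15.46 (lowest, median and highest) at 188 dpn, against 8.68, 9.48 and 12.09 at 94 dpc and rose by 5.23 ± 0.212 (adjusted p = 6.17e-20), and C2, its partner in the convertase, rose by 4.81 ± 0.257. C8G, C1R and C1S, of the membrane attack complex and of the initiating protease, rose by 3.92 ± 0.149, 3.79 ± 0.219 and 2.68 ± 0.197. The clotting proteins F9, F5 and FGG rose by 0.76 ± 0.0766, 0.69 ± 0.0993 and 0.29 ± 0.0827. PLG, the plasminogen, gave −0.00 with an interval of −0.17 to 0.16, though 0.32 after quantile normalization. PROS1, the cofactor of protein C, fell by 0.65 ± 0.0984.

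Acute phase genes were mixed, with 7 of 17 higher and 3 lower. Beside CRP, LRG1, a leucine-rich glycoprotein, rose by 4.98 ± 0.216, CEBPD and STAT3, transcription factors of the acute phase, by 2.98 ± 0.122 and 2.42 ± 0.097, and LBP, which binds endotoxin, by 2.16 ± 0.289. SAA2, a serum amyloid, fell by 1.21 ± 0.087, ITIH3, an inhibitor heavy chain, by 0.80 ± 0.121 and ORM1, the orosomucoid, by 0.57 ± 0.095. For SAA2 a dimmer probe-set rose. HAMP, the hepcidin that closes the iron exporter, had 11.26, 13.68 and 14.67 (lowest, median and highest) at 188 dpn, against 11.18, 12.51 and 13.65 at 94 dpc and a change of 0.89 ± 0.322 (SE), adjusted p = 0.0166. It was not called alike under all 3 scalings, and its mean at 28 dpn, 6.88, lay far below both ends.

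Genes of the fetal liver and imprinted growth genes fell in 8 of 13 cases and rose in 0, with a median of −1.71. Beside AFP and PEG10, PEG3, a paternally expressed zinc finger gene, had 1.79, 4.89 and 7.00 (lowest, median and highest) at 188 dpn, against 8.87, 9.54 and 10.30 at 94 dpc and fell by 4.93 ± 0.404 (adjusted p = 2.39e-12), or by 3.57 with background as the floor. PLAGL1, a paternally expressed inhibitor of growth, fell by 2.51 ± 0.176 and GPC3, a glypican of growing liver, by 1.89 ± 0.181. IGF2R, the maternally expressed receptor that clears insulin-like growth factor II in the mouse, fell by 1.22 ± 0.123. GRB10 and NNAT gave −0.28 and −0.15, neither called alike, and NNAT was dim at both stages.

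IGF2, the insulin-like growth factor of fetal growth, was measured by 13 probe-sets, and they disagreed. The brightest had 10.41, 10.78 and 11.01 (lowest, median and highest) at 188 dpn, against 15.04, 15.33 and 15.60 at 94 dpc and fell by 4.54 ± 0.0741 (adjusted p = 1.52e-30), and 10 of the 13 fell under all 3 scalings. A single probe-set rose, with 7.90, 8.49 and 9.06 at 188 dpn, against 2.91, 3.52 and 6.36 at 94 dpc, where no array was above background, an increase of at least 5.15-fold. The remaining 2, dim at both stages, gave 0.12 and 0.63 and were not called. Which transcripts of the gene each probe-set detects is not given in the sources used here.

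Genes of the growth hormone axis moved both ways. GHR, the growth hormone receptor, had 7.85, 9.19 and 9.91 (lowest, median and highest) at 188 dpn, against 2.94, 4.33 and 6.40 at 94 dpc, was above background on 1 fetal array, and rose by 4.76 ± 0.238 (adjusted p = 1.30e-17), or by 2.98 above background. IGF1, which the receptor induces in the liver, lay between 8.89 and 10.22 at 188 dpn (median 9.84) and between 5.53 and 8.20 at 94 dpc (median 7.24) and rose by 2.65 ± 0.215 (adjusted p = 1.76e-12) without overlap. IGFALS, the subunit that holds the growth factors in the circulating ternary complex, rose by 1.97 ± 0.316, or by 1.49 with background as the floor. IGFBP2 and IGFBP1, binding proteins of fetal and fasting plasma, fell by 1.80 ± 0.189 and 1.15 ± 0.245, and JAK2, the kinase bound to the receptor, by 1.35 ± 0.18. Over the list of 16 genes 4 rose and 5 fell.

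DNA replication and mitosis fell nearly throughout. Of 46 genes 41 fell and 0 rose, 31 were lower without overlap, and the median was −2.23 (−1.99 after quantile normalization, −1.96 with background as the floor). CCNB1, the cyclin of entry into mitosis, had 1.66, 5.76 and 7.16 (lowest, median and highest) at 188 dpn, against 9.45, 10.21 and 10.88 at 94 dpc, and fell by 5.17 ± 0.416 (adjusted p = 1.49e-12), or by 4.13 with background as the floor, with 6 mature arrays above it. TOP2A, the topoisomerase of dividing cells, lay between 2.34 and 6.46 at 188 dpn (median 5.38) and between 8.23 and 10.17 at 94 dpc (median 9.28) and fell by 4.14 ± 0.316, or by 3.34 with that floor. HMMR and RRM2, of the spindle and of nucleotide reduction, fell by 4.13 ± 0.5 and 4.12 ± 0.229, and no mature array was above background for HMMR, which gives a decrease of at least 2.25-fold. For genes measured on all 32 arrays the decreases were 2.17 ± 0.15 for PCNA, the sliding clamp of replication, 3.04 ± 0.157 for MAD2L1 of the spindle checkpoint and 3.20 ± 0.14 for HMGB2. CKS1B gave −0.00 with an interval of −0.20 to 0.20, and BUB3 gave −0.24. Most markers of blood cell precursors were lower at 188 dpn as well, but with a different timing, which is given below. The summed linear signal of 19 red cell markers was 23242 to 34729 at 188 dpn and 29536 to 61917 at 94 dpc, and that of 11 neutrophil and myeloid markers 1123 to 3371 at 188 dpn and 3414 to 59647 at 94 dpc. Their part in the decrease of cell cycle genes was not tested.

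Markers of red cell precursors fell in 13 of 19 cases and rose in 3, with a median of −1.56. RHCE, of the Rh blood group, had 4.37, 5.94 and 6.91 (lowest, median and highest) at 188 dpn, against 10.52, 11.73 and 12.30 at 94 dpc and fell by 5.74 ± 0.205 (adjusted p = 1.90e-21). AHSP, the chaperone of α-globin, lay between 7.88 and 10.12 at 188 dpn (median 9.23) and between 12.12 and 13.51 at 94 dpc (median 12.95) and fell by 3.74 ± 0.187 (adjusted p = 1.30e-17), and KLF1, the master factor of red cell genes, fell by 3.44 ± 0.203. TFRC, the transferrin receptor through which precursors take up iron, had 1.50, 3.01 and 5.40 (lowest, median and highest) at 188 dpn, against 6.81, 8.77 and 9.78 at 94 dpc and fell by 5.65 ± 0.303 (adjusted p = 7.74e-17), or by 3.02 with background as the floor, with 1 mature array above it. ALAS2, the first enzyme of heme synthesis in red cells, was still above background on all arrays of 188 dpn and fell by 1.73 ± 0.133. The 3 that rose were ALAD of heme synthesis (2.67 ± 0.0962), SLC25A38, a mitochondrial glycine carrier (1.34 ± 0.121), and RHBG, an ammonium transporter (1.20 ± 0.253), which liver cells are known to express too.

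Of 12 genes of iron handling in liver cells 3 rose and 4 fell. HMOX1, which opens the heme ring, and BLVRA, which reduces biliverdin, rose by 1.83 ± 0.146 and 1.72 ± 0.137. NCOA4, the ferritin receptor of autophagy, and IREB2, an iron regulatory protein, fell by 1.72 ± 0.106 and 1.77 ± 0.12. ACO1, the other regulatory protein, fell by 1.16 ± 0.112 in its brightest probe-set. Of its 3 probe-sets 2 fell under all 3 scalings. The remaining probe-set of ACO1, above background on every array, was higher by 0.38 ± 0.105 (adjusted p = 0.002) as deposited, but was not called alike. FTH1 and FTL, the ferritin chains, gave 0.15 and −0.11 and were not called alike under all 3 scalings.

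Markers of neutrophils and their precursors had a median of −3.53 (−2.80 with background as the floor), with 10 of 11 genes lower and 1 higher. NPG4, a protegrin of porcine neutrophils, had 7.20, 8.36 and 10.33 (lowest, median and highest) at 188 dpn, against 10.84, 14.19 and 15.22 at 94 dpc and fell by 5.43 ± 0.34 (adjusted p = 3.43e-15). PRTN3, the proteinase of azurophil granules, lay between 1.99 and 5.89 at 188 dpn (median 2.78) and between 5.97 and 10.04 at 94 dpc (median 8.39) and was above background on no mature array, a decrease of at least 6.87-fold. PGLYRP1, which binds bacterial peptidoglycan, and PR39, a cathelicidin, fell by 4.52 ± 0.343 and 4.03 ± 0.407, or by 3.19 and 3.84 with background as the floor. S100A9, the calgranulin that was measured on all 32 arrays, fell by 3.53 ± 0.333. ITGB2, the integrin chain shared by all leukocytes, rose by 0.70 ± 0.153. Of 7 platelet markers 4 fell and 0 rose, among them PPBP (4.71 ± 0.56, or 3.15 with the same floor), the platelet basic protein, and THBS1 (1.20 ± 0.202), the thrombospondin.

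Lists of macrophage and lymphoid markers had more genes higher than lower. Of 15 macrophage markers 10 rose and 1 fell, with a median of 1.03 and a summed linear signal of 77897 to 104367 at 188 dpn, against 8035 to 37389 at 94 dpc. Next to FOLR2, TYROBP, the signalling adaptor of myeloid receptors, rose by 2.34 ± 0.283, CD5L, a secreted inhibitor of apoptosis, by 1.82 ± 0.102, VSIG4, the complement receptor of Kupffer cells, by 1.60 ± 0.24 and CD14, the endotoxin coreceptor, by 1.03 ± 0.182. MARCO, a scavenger receptor, lay between 2.81 and 7.33 at 188 dpn (median 5.85) and between 1.98 and 9.65 at 94 dpc (median 8.46) and fell by 2.63 ± 0.503 (adjusted p = 3.19e-05), or by 2.31 with background as the floor. SIGLEC1 was called higher (1.63), but with background as the floor its change was 0.05.

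Of 14 T and NK cell markers 6 rose and 0 fell, with a median of 0.63 that was 0.11 with background as the floor. GNLY, the granulysin of cytotoxic cells, had 8.00, 9.44 and 10.43 (lowest, median and highest) at 188 dpn, against 3.28, 5.07 and 7.74 at 94 dpc and rose by 4.18 ± 0.322 (adjusted p = 5.58e-13), or by 2.97 above background. CD8A, the coreceptor of cytotoxic T cells, rose by 2.20 ± 0.311, or by 1.65 above background, and CCL5, a chemokine of these cells, by 1.23 ± 0.173. CD3E, PRF1 and IL7R gave −0.13, −0.41 and −0.49, none of them called alike under all 3 scalings. Only 1 of the 14 was above background on all 32 arrays. Of 4 markers of B and plasma cells 2 rose, with a median of 0.68 that was −0.28 with background as the floor. JCHAIN, the joining chain of IgA and IgM, rose by 2.90 ± 0.252, and TNFRSF17 was above background on 4 mature and 0 fetal arrays, with a change of 1.51 that was −0.33 with background as the floor. Background was itself 0.46 lower at 188 dpn, so the floor alone moves genes near background towards a decrease.

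Antigen presentation rose in 15 of 19 genes and fell in 1, with a median of 1.21, and the part of the macrophage and lymphoid markers above in this was not tested. SLA-DRA, a class II chain, had 11.57, 12.37 and 13.16 (lowest, median and highest) at 188 dpn, against 8.32, 10.72 and 11.67 at 94 dpc and rose by 1.77 ± 0.224 (adjusted p = 2.89e-08). SLA-3, SLA-6 and SLA-2, of class I, rose by 2.73 ± 0.172, 2.62 ± 0.291 and 2.22 ± 0.23, and SLA-DQA1 of class II by 2.19 ± 0.207. SLA genes are polymorphic and alike, so probe-sets may respond to alleles and to each other. TAP1, which carries peptides to class I, rose by 1.21 ± 0.208. B2M, the light chain of class I, fell by 0.85 ± 0.0904 in its brightest probe-set, which is the 1 decrease counted in the list. Of its 9 probe-sets 2 rose and 5 fell under all 3 scalings, so that count gives no direction for the gene as a whole. CD74, the invariant chain, gave −0.61 and was not called alike.

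Interferon response genes rose in 12 of 20 cases and fell in 2. ISG15, a ubiquitin-like modifier, had 9.92, 10.56 and 11.47 (lowest, median and highest) at 188 dpn, against 4.78, 8.12 and 11.44 at 94 dpc, and rose by 2.44 ± 0.384 (adjusted p = 1.54e-06), while OAS1, which activates an antiviral nuclease, rose by 2.17 ± 0.631 and IRF9, of the interferon-stimulated complex, by 1.57 ± 0.174. EIF2AK2, the kinase activated by double-stranded RNA, and IFIT1 fell by 1.95 ± 0.205 and 1.13 ± 0.156. A pair of fetal arrays reached 10.8 and 11.4 for ISG15 and 10.8 and 11.3 for MX1, above the other fetal arrays by over 1 log2 unit, so that the stages overlapped.

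Of 28 genes of extracellular matrix and its remodelling 7 rose and 11 fell. MGP, which prevents calcification, had 13.86, 14.28 and 15.00 (lowest, median and highest) at 188 dpn, against 8.03, 10.46 and 11.10 at 94 dpc and rose by 4.06 ± 0.194 (adjusted p = 4.49e-18), and FBLN1, the fibulin of elastic fibres, rose by 2.96 ± 0.131. COL15A1, a basement membrane collagen, fell by 2.65 ± 0.335, or by 1.97 with background as the floor, LAMB1, a laminin chain, by 2.22 ± 0.163 and NID2, which links laminin to collagen, by 1.70 ± 0.133. COL3A1 fell by 1.23 ± 0.225 while COL1A2 rose by 0.34 ± 0.107. With the added RNAs as a covariate 3 genes of the list were called higher, against 7 without it on the deposited scale. Over all genes 1365 were called higher with it, against 1833.

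Lists of endothelial, stellate and bile duct markers had medians of −0.31, 0.22 and −1.04. Of 10 endothelial markers 1 rose, CDH5 (1.11 ± 0.207), the cadherin of endothelial junctions, and 3 fell, KDR (1.60 ± 0.341), the receptor of vascular endothelial growth factor, ENG (0.99 ± 0.146) and TEK (0.81 ± 0.19). LYVE1 and PECAM1 gave −0.26 and −0.19. Of 10 stellate cell and fibroblast markers 4 rose and 1 fell, with TAGLN (0.66 ± 0.172) and DES (0.46 ± 0.172), of the contractile apparatus, among those that rose. With the added RNAs as a covariate 1 stellate marker was called higher, against 5 without it, and 2 endothelial markers lower, against 5. Over all genes the same fit gave 1365 higher, against 1833, and 2282 lower, against 3001. Of 9 bile duct markers 1 rose and 4 fell. KRT19, a keratin of duct cells, fell by 2.18 ± 0.372, or by 1.54 with background as the floor, EPCAM, an adhesion protein of ducts and of immature liver cells, by 1.71 ± 0.156 and ANXA4 by 1.54 ± 0.107, whereas MUC1 rose by 0.32 ± 0.13.

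**Figure D3:**
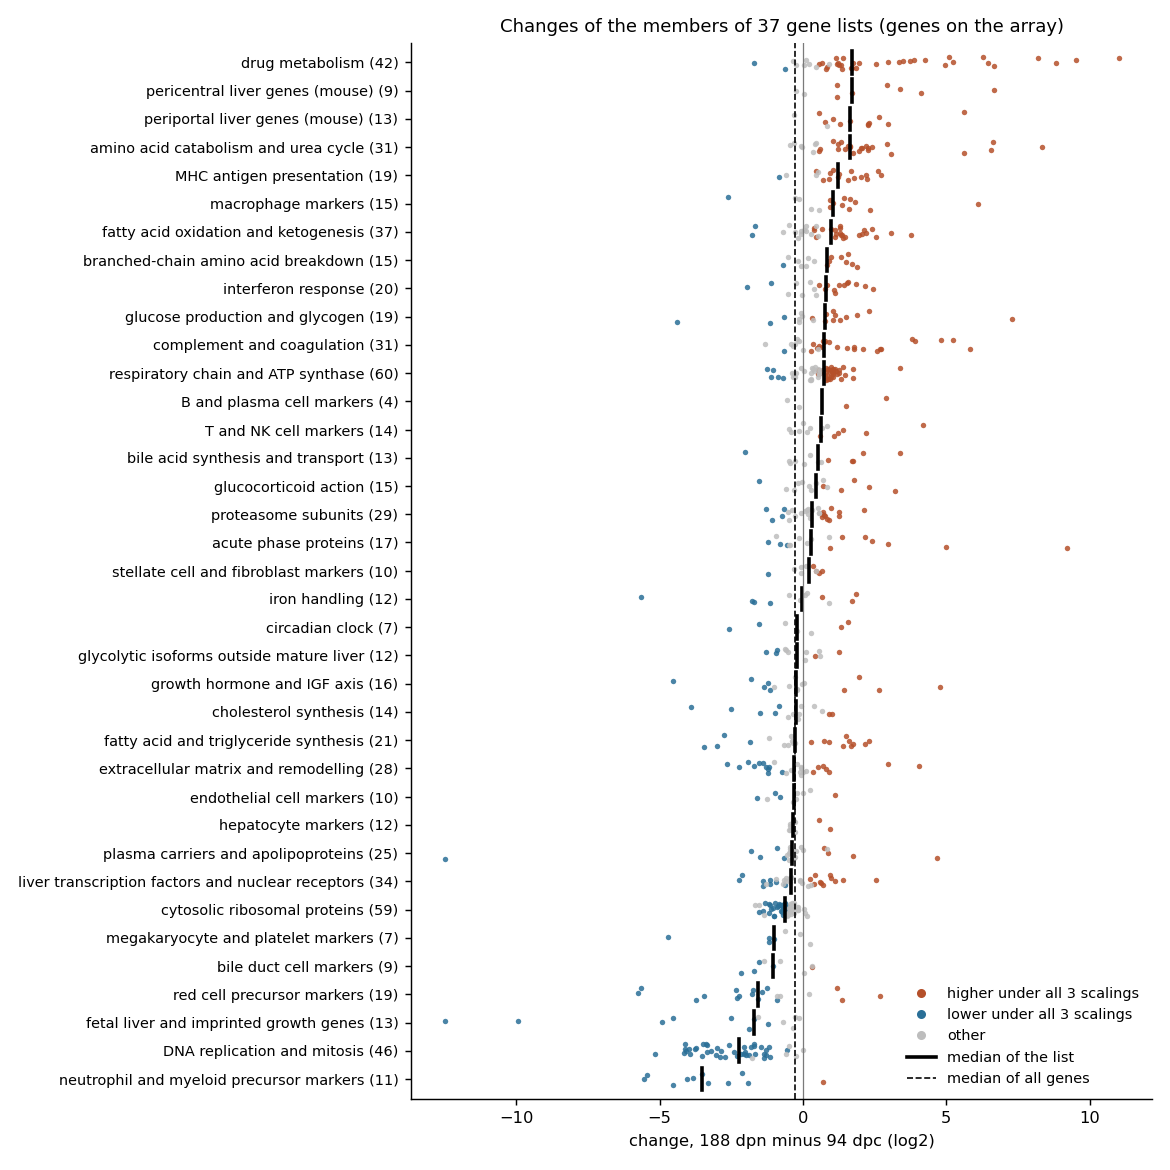
Change of every measured member (points; 188 dpn minus 94 dpc, log2, x axis) of 37 gene lists (rows, with the number of genes on the array), coloured by the direction called under all 3 scalings, with the list median (bar) and the median of all genes (dashed, −0.27). Drug metabolism has a median of 1.71 and neutrophil and myeloid precursor markers one of −3.53.

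Transcription factors of the liver gave no common direction, with 11 of 34 genes higher and 8 lower. KLF15, which drives genes of amino acid breakdown, had 11.33, 11.81 and 12.82 (lowest, median and highest) at 188 dpn, against 8.49, 9.28 and 9.99 at 94 dpc and rose by 2.53 ± 0.147 (adjusted p = 5.30e-16), and CEBPB and CEBPA, of hepatocyte differentiation, rose by 1.38 ± 0.229 and 0.71 ± 0.227. HNF4A, the nuclear receptor that maintains hepatocyte identity, lay between 12.63 and 13.60 at 188 dpn (median 13.12) and between 11.55 and 12.39 at 94 dpc (median 12.17) and rose by 0.96 ± 0.0911. RARA and RARB, receptors of retinoic acid, RXRA, their partner, and ESR1, the estrogen receptor, fell by 2.22 ± 0.397, 2.14 ± 0.418, 1.38 ± 0.174 and 1.38 ± 0.281. RARA was above background on 4 mature arrays and RARB on 5, and with background as the floor RARA, RARB and ESR1 fell by 1.04, 1.09 and 0.89. FOXA2 and NR1I2, the pregnane receptor of P450 induction, gave −0.11 and −0.45 and were not called alike. With the added RNAs as a covariate 8 genes of the list were called lower, against 17 on the deposited scale. Over all genes 2282 were called lower with it, against 3001.

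Of 7 clock genes 2 rose and 2 fell, with 1.55 ± 0.148 for DBP and 1.31 ± 0.124 for PER1 against 2.59 ± 0.215 for the decrease of ARNTL, their activator, and 1.53 ± 0.179 for that of BHLHE40. The hour of sampling is not in the labels. Of 15 genes of glucocorticoid action 5 rose and 1 fell. HSD11B1, which regenerates cortisol in the liver, had 14.66, 15.14 and 15.53 (lowest, median and highest) at 188 dpn, against 10.77, 12.06 and 12.49 at 94 dpc and rose by 3.21 ± 0.133 (adjusted p = 1.11e-19), and KLF9 rose by 1.76 ± 0.188. SGK1, a kinase induced by steroid, fell by 1.55 ± 0.241. NR3C1, the receptor itself, gave −0.59 and was not called alike under all 3 scalings. PRKAA1 and PRKAA2, the catalytic subunits of the energy sensor AMP-activated protein kinase, moved apart, with a decrease of 1.47 ± 0.181 and a rise of 0.62 ± 0.235.

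Most genes on the lists that mark either zone of the mouse lobule rose, and position within the pig lobule was not measured. Of 9 pericentral genes 7 rose and 0 fell (median 1.71), and of 13 periportal genes 11 rose and 0 fell (median 1.64). SLC1A2, a glutamate transporter of pericentral cells, had 5.89, 7.48 and 8.78 (lowest, median and highest) at 188 dpn, against 0.76, 3.67 and 5.89 at 94 dpc and rose by 4.13 ± 0.514, or by 1.40 above background, and OAT, the ornithine aminotransferase, rose by 2.92 ± 0.275. GLUL, the glutamine synthetase of pericentral cells, gave 0.02 ± 0.201 (SE), adjusted p = 0.945. PIGR, the receptor that carries IgA, rose by 2.97 ± 0.358 in the periportal list, or by 2.09 above background. Several members of both lists also stand in the metabolic lists above.

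Subunits of the respiratory chain and ATP synthase rose in 35 of 60 cases and fell in 5, with a median of 0.75 (0.41 after quantile normalization). COX7A1, the muscle and heart form of a cytochrome oxidase subunit, had 13.14, 13.67 and 13.96 (lowest, median and highest) at 188 dpn, against 8.99, 10.23 and 11.65 at 94 dpc and rose by 3.37 ± 0.17 (adjusted p = 1.55e-17). NDUFB2, NDUFB11 and NDUFB4 of complex I rose by 1.74 ± 0.0983, 1.73 ± 0.0959 and 1.46 ± 0.0863, and SDHC and SDHA of complex II by 1.40 ± 0.126 and 1.27 ± 0.0659. NDUFA5 fell by 1.13 ± 0.123. NDUFA1 fell by 1.25 ± 0.144 in its brightest probe-set, while another rose. CYCS, the cytochrome c, fell by 0.89 ± 0.177. Of 29 proteasome subunits 11 rose and 4 fell, with PSMB3 (2.11 ± 0.0929) highest and PSMD14 (1.28 ± 0.124) the largest decrease.

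Cytosolic ribosomal proteins fell in 33 of 59 cases and rose in 0, with a median of −0.62 (−0.47 after quantile normalization, −0.28 after centring). RPL4 had 13.52, 13.78 and 14.31 (lowest, median and highest) at 188 dpn, against 15.13, 15.42 and 15.68 at 94 dpc and fell by 1.53 ± 0.0857 (adjusted p = 2.16e-16), and RPL5, RPL7 and RPS24 fell by 1.38 ± 0.0932, 1.32 ± 0.0788 and 1.19 ± 0.0791. RPL37 and RPL27 gave 0.14 and 0.05, and FAU gave 0.03 with an interval of −0.14 to 0.20, but 0.32 after quantile normalization. Decreases were therefore small beside those of cell division, and for 26 members the stages did not overlap.

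The stages between show when the net change was reached on the deposited scale. Of the 1710 genes that rose, 616 (36.0%) had their largest step between 94 dpc and 1 dpn, 929 (54.3%) between 1 and 28 dpn and 165 (9.65%) after 28 dpn. For the 1801 that fell the numbers were 528 (29.3%), 1051 (58.4%) and 222 (12.3%). The median share of the net change present at 1 dpn was 33.9% for genes that rose and 23.8% for those that fell, and at 28 dpn it was 91.4% and 83.2%. These shares are descriptions from stage means, with 16 arrays at 1 dpn and 15 at 28 dpn, and were not computed under the other scalings. Array medians averaged 7.38, 7.23, 6.83 and 6.72 from 94 dpc to 188 dpn. The 28S rRNA averaged 12.3, 12.6, 14.8 and 14.7, and the actin difference 2.44, 1.59, 3.66 and 4.10. These moved most between 1 and 28 dpn, whereas the added RNAs (0.33, 1.12, 1.35 and 1.05) moved most before 1 dpn. Their part in the timing was not tested.

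The shares of single lists and genes ranged widely. Each share of a list is the median of the members' own shares, over the members that rose or fell. At 1 dpn it was 79.0% for red cell markers, 43.0% for neutrophil and myeloid markers, 81.1% for cholesterol synthesis and 101% for ribosomal proteins. For DNA replication genes it was 13.7% at 1 dpn and 55.6% at 28 dpn. TOP2A averaged 9.21 at 94 dpc and still 8.98 at 1 dpn, then 6.99 at 28 dpn, and ended at 5.06 at 188 dpn. AFP was still at 15.45 at 1 dpn, against 15.96 at 94 dpc, and fell to 7.30 at 28 dpn and 3.47 at 188 dpn. CYP2E1 and ETNPPL had 81.8% and 85.2% of their rise at 1 dpn, CYP3A29 and KHK 32.0% and 16.6%, and CYP2A19 6.35%. GPT, the alanine aminotransferase, had only 14.5% of its rise at 28 dpn.

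**Figure D4:**
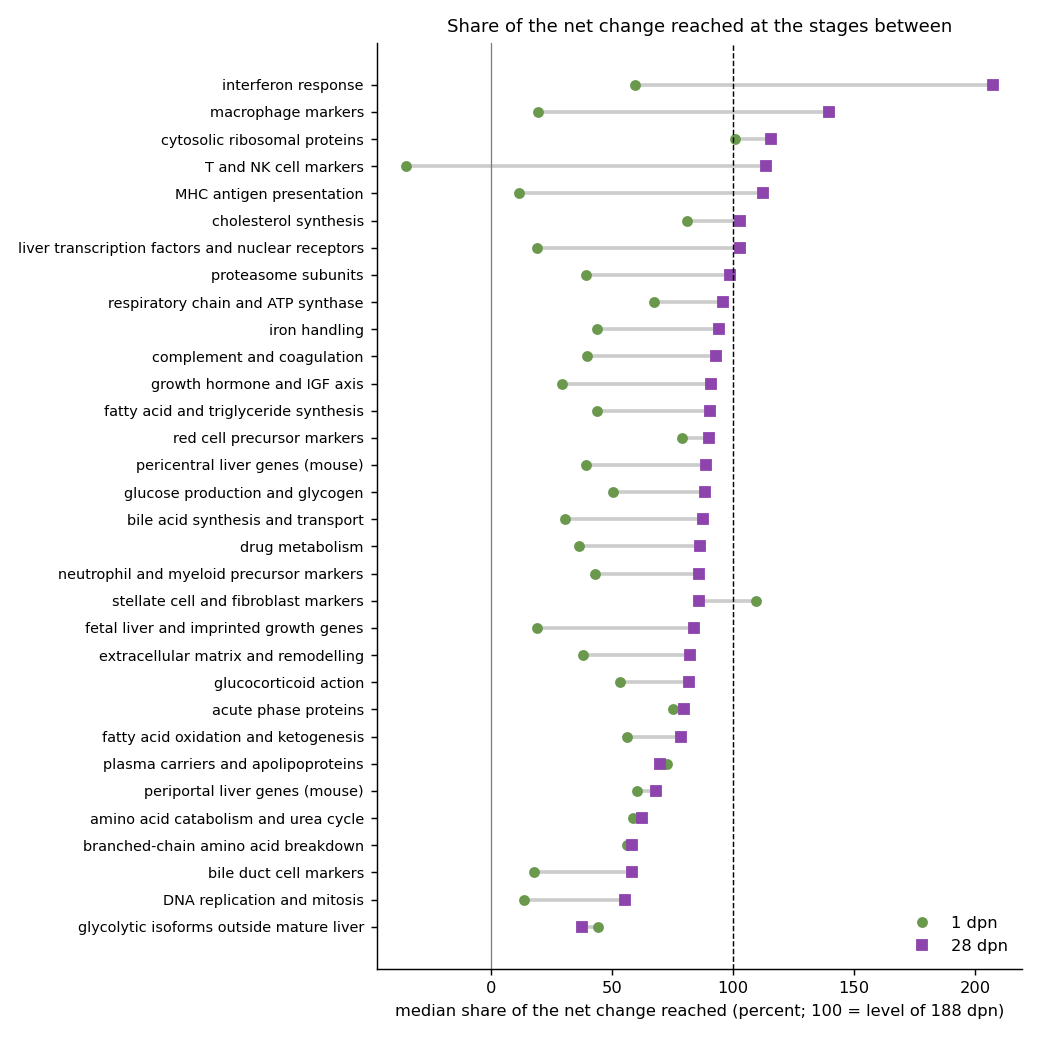
Median share of the net change on the deposited scale reached at 1 dpn (circles) and 28 dpn (squares), over the members that rose or fell. Lists with at least 5 such members are shown, where 0 is the level of 94 dpc and 100 that of 188 dpn. Ribosomal proteins stood at 101% at 1 dpn, while T and NK cell markers stood at −34.9% and interferon genes passed the mature level at 28 dpn (207%).

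Some groups moved the other way at birth or passed the mature level. Over T and NK cell markers that rose or fell, the median share was −34.9% at 1 dpn and 114% at 28 dpn, and over antigen presentation 11.6% and 113%. SLA-DRA averaged 10.55 at 94 dpc, dropped to 9.53 at 1 dpn, and then reached 12.46 at 28 dpn, with 12.32 at 188 dpn. At 28 dpn the median share was 140% for macrophage markers and 207% for interferon genes. PLIN2 was higher at 1 dpn (12.93) than at 94 dpc (11.82) before it fell to 10.12 and 8.81. HPD stood above its mature mean at 1 dpn (13.66, against 11.11 at 188 dpn).

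**Figure D5:**
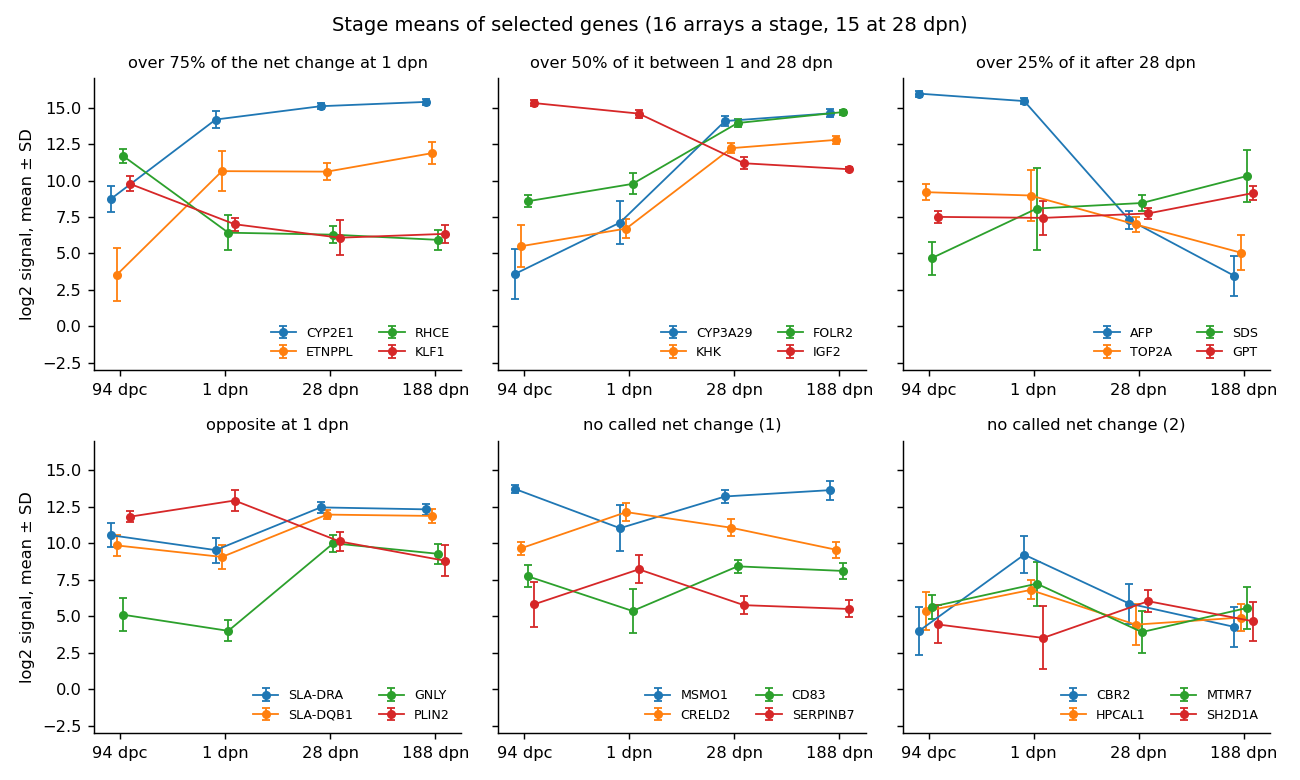
Mean and SD of the log2 signal at 94 dpc, 1 dpn, 28 dpn and 188 dpn (x axis) for 24 genes grouped by when their net change was reached, or by having no called net change. AFP falls mainly between 1 and 28 dpn, whereas MSMO1, CRELD2 and CBR2 return near their fetal level by 188 dpn.

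A further group of genes had no called net change although the stages between differed from both ends. MSMO1, a sterol methyl oxidase of cholesterol synthesis, averaged 13.72 at 94 dpc, dropped to 11.03 at 1 dpn and was back at 13.21 by 28 dpn, with 13.64 at 188 dpn, a net change of −0.08 ± 0.177. CRELD2, a chaperone of the endoplasmic reticulum, averaged 9.66, 12.14, 11.06 and 9.55 at the same stages, with a net change of −0.11. CD83, of activated dendritic cells, was lowest at 1 dpn (5.36) and gave a net change of 0.36. CBR2, a carbonyl reductase, and SERPINB7, an intracellular serpin, were highest at 1 dpn (9.22 and 8.21). They lay close to background at both ends, and so did HPCAL1, MTMR7 and SH2D1A. APOC2, an apolipoprotein that activates lipoprotein lipase, hardly moved at any stage, with a net change of −0.01 and an interval of −0.20 to 0.17, but 0.26 after quantile normalization.

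Animals of a stage also differed among themselves, and not in the same genes. At 188 dpn wide spreads lay in MBL2 (SD 2.06), SDS (1.80), CYP7A1 (1.73) and APOA4 (1.57), with MBL2 running from 5.34 to 13.46. The mature livers also spread in HMGCS1 (SD 1.37, against 0.60 at 94 dpc) and SCD (1.15, against 0.32). At 94 dpc wide spreads lay in C9, of the membrane attack complex, and GSTA1, a glutathione transferase, with SDs of 2.75 and 2.33, against 0.29 and 0.27 at 188 dpn. For C9, 4 fetal livers lay between 5.81 and 7.15 and the other 12 between 11.57 and 13.25, while all mature livers lay between 13.07 and 14.14. C9 and GSTA1 rose by 2.71 ± 0.672 and 4.95 ± 0.569, and the stages overlapped for C9 but not for GSTA1 (14.85 to 15.84 at 188 dpn, against 5.87 to 13.62 at 94 dpc). Sex, mother and body weight of these animals are not in the labels, and their part in this spread was not tested.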

How the data were processed

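Liver RNA of each animal was hybridised to a porcine expression array. The authors deposited 1 table of log2 signals, computed per the submitters' processing notes with GCOS 1.1.1 and scaled per array to a trimmed mean of 500 (2% left out on each side), with signals under 1 set to a log2 of 0 and no normalization between arrays. The study's own model used other normalized values, with sex, mother and weight as terms, which the labels do not give.

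All 23935 non-control probe-sets were fitted with limma 3.58.1 (lmFit and eBayes, two-sided, R 4.3.3), with no covariate, and p-values were adjusted by Benjamini-Hochberg over all of them. Tables and figures were made with pandas 2.3.3 and matplotlib 3.10.9. The fit was tested on simulated data. Symbols came from the platform annotation (10069 probe-sets with 1 symbol, 198 with several, 13668 with none), and 3 probe-sets, DHCR7 and NDUFS8 among them, from the study's primer list. Each gene is represented by its probe-set of highest mean over the 32 arrays.

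Named genes are the 15 largest changes without overlap in each direction, in each of 37 lists the 4 largest changes in the main direction and the 2 largest the other way, 12 genes of the question, 8 genes with no net change but a wide range between stages, and 4 with the narrowest interval around 0. Not all of these are printed, 1 gene is not reported here, and further list members were named for their roles after their values were seen. The members and lists were chosen with earlier results of these data known. Alternatives were other scalings, filters, weights, thresholds, a rank-sum test, all 63 arrays in the fit, a background floor, the added RNAs as a covariate and leaving out arrays. The number of arrays limits the precision.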

Additional observations from a re-analysis of the deposited data

How the results depend on the processing

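Counts of calls moved with the scaling, the filters and the background floor. With 3807 probe-sets higher and 10891 lower as deposited, quantile normalization gave 6418 higher and 6573 lower, leaving out the probe-sets of lowest SD gave 2311 higher, asking for at least 2-fold gave 1724 and 6803, the filter at the array median gave 7104 lower and the background floor 16413 lower. Counts without overlap (1044 higher, 2265 lower) became 1646 higher after centring, and 1315 lower after quantile normalization and 1249 after centring.

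List counts changed as follows. Lower calls of glycolytic isoforms were 6 as deposited, and 3 after centring and under all 3 scalings. Those of plasma carriers were 18, but 7 after quantile normalization, 5 after centring and 5 under all 3 scalings. Those of transcription factors were 17, but 9, 9 and 8, those of endothelial markers 5, but 3, 3 and 3, and those of hepatocyte markers 10, but 0, 0 and 0. Of ribosomal proteins 33 fell under all 3 scalings, against 53 as deposited. T and NK cell markers had 10 higher after quantile normalization, against 6. With the mean of all probe-sets of a symbol, glucocorticoid action had 4 higher, against 7, and stellate markers 3, against 5. With the added RNAs as a covariate the cholesterol list had 4 lower, against 7, and the iron list 2 higher, against 4. Over all genes that fit gave 1365 higher, against 1833, and 2282 lower, against 3001.

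The changes of these genes turned sign, with quantile normalization: ALB (0.12), APOC2 (0.26), BCAT1 (0.11), CD3E (0.56), FTL (0.25), NR1I2 (0.10) and PLG (0.32). With centring ALB (0.043), APOC2 (0.32), BUB3 (0.10), CKS1B (0.34), FTL (0.23), GRB10 (0.062) and PLG (0.33) did so, and with the background floor CBR2 (−0.61), SH2D1A (−0.34) and TNFRSF17 (−0.33). The floor is each array's own background, 0.46 lower at 188 dpn, so lower calls and negative signs near background are partly built into it. Over 254 named genes and 16 alternatives 3867 of 4004 values kept their direction and their side of the threshold. Of the rest 94 lost the call, 26 gained it and 17 turned, and beyond the scaling and floor themselves the cause was not tested. The filters, thresholds, rank-sum test and fit of all arrays reuse the same difference of means, so no direction could turn there. A looser threshold could not end a call either, so the total is no test of direction. Where the change itself was recomputed, 233 of 254 genes kept both under quantile normalization and 236 under centring. With the added RNAs as a covariate 230 did so. Without 94 dpc array 6, and without arrays 6 and 13, 250 of 254 genes kept both. Among genes said to have risen or fallen, the added RNAs as a covariate ended the call of C9, COL1A2, DLD, FGG, ITGB2, KDR, KRT19, MUC1, OAS1, PFKP, PRKAA2, RARB, RHBG, SQLE and TAGLN, and leaving out array 6 that of MUC1. Single arrays were not left out in turn, with 16 to a stage.

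No paired analysis was possible because the labels give no replicate numbers, pairs or mothers that are shared between the stages. Signals near background limit the size of the largest changes.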
